A study of Mus musculus with 15 samples.

Results

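Chromosome 16 of the mouse was followed as a capture target in 4C-seq, an assay that starts from 1 bait fragment and counts the restriction sites ligated to it. Its members are all 30962 HindIII sites that the deposited mm9 tables list on chromosome 16, of 823355 sites in all. The chromosome was chosen from the measured values, because it stood above the other autosomes under the Ifng bait. Its level under that bait, and where along the chromosome the level was high, are therefore described without a test.

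The study used 3 baits, which carry the genes Pparg, Lpin1 and Ifng. The 3T3-L1 line, mouse fibroblasts able to turn into adipocytes, was sampled as preadipocytes at day 0, at day 1, at day 2 and as mature adipocytes at day 6. Differentiation was started at day 0 with 1 µM dexamethasone, 0.5 mM 3-isobutyl-1-methylxanthine and 1 µg/ml insulin in serum. A B lymphocyte cell line, which is not named further and whose labels repeat the 3T3-L1 culture protocol, was the other cell type. Formaldehyde at 2% was used to fix all groups over 10 min, and chromatin was cut with HindIII and then DpnII. Each 3T3-L1 group of a bait has 2 libraries, told apart here by the replicate number in their deposited names, and each B cell group has 1, giving 27 libraries. Each 3T3-L1 group is a population of 1 cell line at 1 stage, so the libraries of a group do not stand for different animals.

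Chromosomes occupy separate territories in the nucleus, and contacts between different chromosomes are rare and scattered over many sites. Such contacts are usually read from how many sites of a region are captured, because reads at 1 site are copies made by PCR. Pparg encodes PPAR gamma, the nuclear receptor at the head of the fat cell programme, Lpin1 encodes lipin 1, a phosphatidate phosphatase of fat synthesis, and Ifng encodes interferon gamma, a cytokine of T and natural killer cells. Each bait lies on a chromosome of its own. The site with the most reads, taken as the bait, was at chr6:115369246-115369251 for Pparg, at chr12:16597111-16597116 for Lpin1 and at chr10:117870359-117870364 for Ifng.

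Chromosome 16 carries 679 protein-coding genes in the RefSeq annotation of a later assembly, GRCm38.p6. That is 21.9 genes per 1000 HindIII sites, which ranked 13 among the 19 autosomes. From the centromere outwards its genes include Crebbp (a histone acetyltransferase), Ciita (the activator of MHC class II genes), Adipoq (adiponectin, a hormone of fat cells) and Bcl6 (a repressor of germinal centre B cells). Farther out follow Zbtb20 (a zinc finger repressor), Robo1 and Robo2 (axon guidance receptors), App (the amyloid precursor protein), Ifngr2 (a subunit of the interferon gamma receptor) and Runx1 (a transcription factor of blood cells). Their order is from that later assembly, so none was placed in the mm9 windows described here.

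A site was called captured when it had at least 1 read. The captured share of chromosome 16 was divided by that of the 611746 sites on the 15 other autosomes that hold no bait, in the same library, and this ratio is called the multiple. A multiple of 1 means capture at the rate of those autosomes. Libraries held 116031 to 3002206 reads in all, and 42094 to 2536087 reads once sites within 10 kb of the bait were left out. Of these, 588 to 45384 reads fell on chromosome 16, on 139 to 6351 captured sites. In the day 0 library numbered 1 of the Ifng bait, for example, 1410 sites had exactly 1 read and stood just inside the threshold, 651 had 2 reads, and 25196 had none and stood outside it. Over the 27 libraries, 13.3% to 68.4% of captured sites on chromosome 16 had a single read.

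Under the Ifng bait, chromosome 16 was captured at about 3 times the rate of the other autosomes, and under the baits of both fat genes it was captured at close to their rate. In the Ifng libraries numbered 1 and 2, the multiple was 3.92 and 2.32 at day 0, 3.40 and 2.67 at day 1, 3.12 and 2.48 at day 2, and 3.29 and 2.73 at day 6. The mean was 2.99 ± 0.538 (SD, n = 8). The B cell library had 2.30, below the lowest 3T3-L1 library. Thinned to equal reads it had 1.88, against 2.32 in the lowest 3T3-L1 library, and with 2 or more reads 1.62 against 2.33. In captured share of sites, the 3T3-L1 libraries ranged from 6.14% (day 6, number 1) to 20.5% (day 2, number 1) on chromosome 16. The other autosomes had 1.87% and 6.57% in those same libraries.

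Under the Pparg bait the multiple of chromosome 16 ranged from 0.902 to 1.08 over the 8 3T3-L1 libraries, with a median of 0.984 and a mean of 0.987 ± 0.0605 (SD, n = 8). The B cell library had 1.12. Under the Lpin1 bait it was 1.10 ± 0.0382 (SD, n = 8), and the B cell library had 1.08. No library of either bait reached the lowest Ifng library. To rank the 16 autosomes without a bait, each was divided by the 15 others. Chromosome 16 thus counts in the denominator of the others, which lowers their values under Ifng. The mean of the 3T3-L1 libraries placed chromosome 16 at rank 10 under Pparg, rank 6 under Lpin1 and rank 1 under Ifng. Under the fat gene baits the highest was chromosome 19, at 1.53 and 1.95. Under Ifng chromosome 19 followed chromosome 16 at 1.26.

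**Figure D1:**
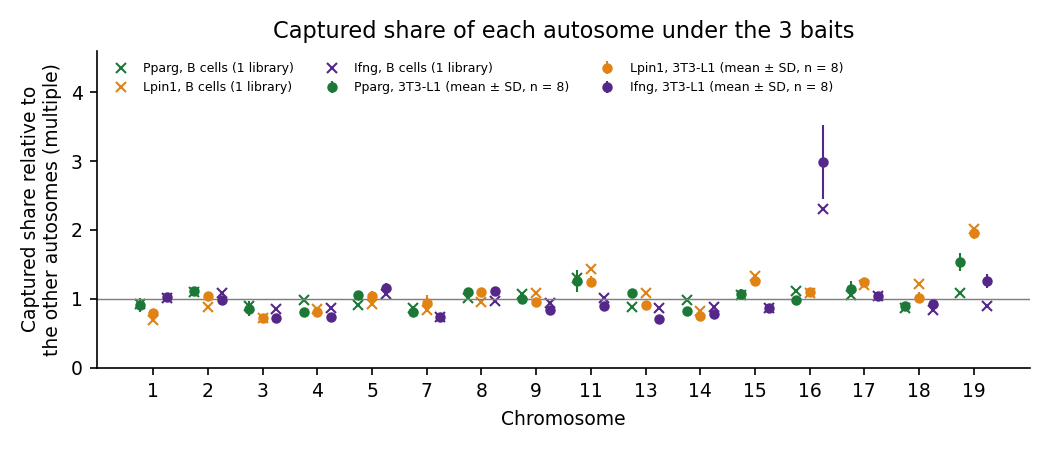
Captured share of each autosome without a bait (vertical axis) by chromosome (horizontal axis), for the 3 baits. Each is a multiple of the 15 other autosomes without a bait in the same library, so chromosome 16 counts in the denominator of the others. Points are means of 8 3T3-L1 libraries with SD bars and crosses are the single B cell libraries; chromosome 16 under Ifng stands at 2.99 in 3T3-L1 and 2.30 in B cells, and no other autosome passes 1.26 under that bait in 3T3-L1.

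The level under Ifng was neither even along chromosome 16 nor confined to the spans at 43 to 44 and 62 to 63 Mb. Most of it was held in 7 blocks within a proximal stretch that ends at 46 Mb, and in a short island at 61.6 to 63.3 Mb. Between the blocks some windows were near background (15 Mb at 1.22, 25.5 Mb at 1.17) and others were not (31 Mb at 1.78, 30.5 Mb at 2.78). A stretch at background lay between the proximal stretch and the island. The chromosome was cut into 191 windows of 500 kb. Under Ifng, 159 of them (83.2%) had a mean multiple above 1 in 3T3-L1, against 40.9% of the 3834 windows on the other autosomes. Multiples above 2 were found in 89 windows (46.6%, against 5.53%), and multiples above 4 in 45 windows (23.6%). On the 15 other autosomes 13 windows (0.339%) passed 4.

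Under Pparg 71 windows (37.2%, against 40.3% on the other autosomes) and under Lpin1 90 windows (47.1%, against 44.5%) lay above 1. Above 2 lay 28 windows under each bait, 14.7%, against 15.3% under Pparg and 10.6% under Lpin1. Above 4 lay 0 windows of chromosome 16, where the other autosomes had 1.23% and 0.261%. The Ifng B cell library repeated the uneven profile, with 140 windows above 1, 80 above 2 and 34 above 4. The other autosomes had 31 windows above 4 in that library, among 3834.

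**Figure D2:**
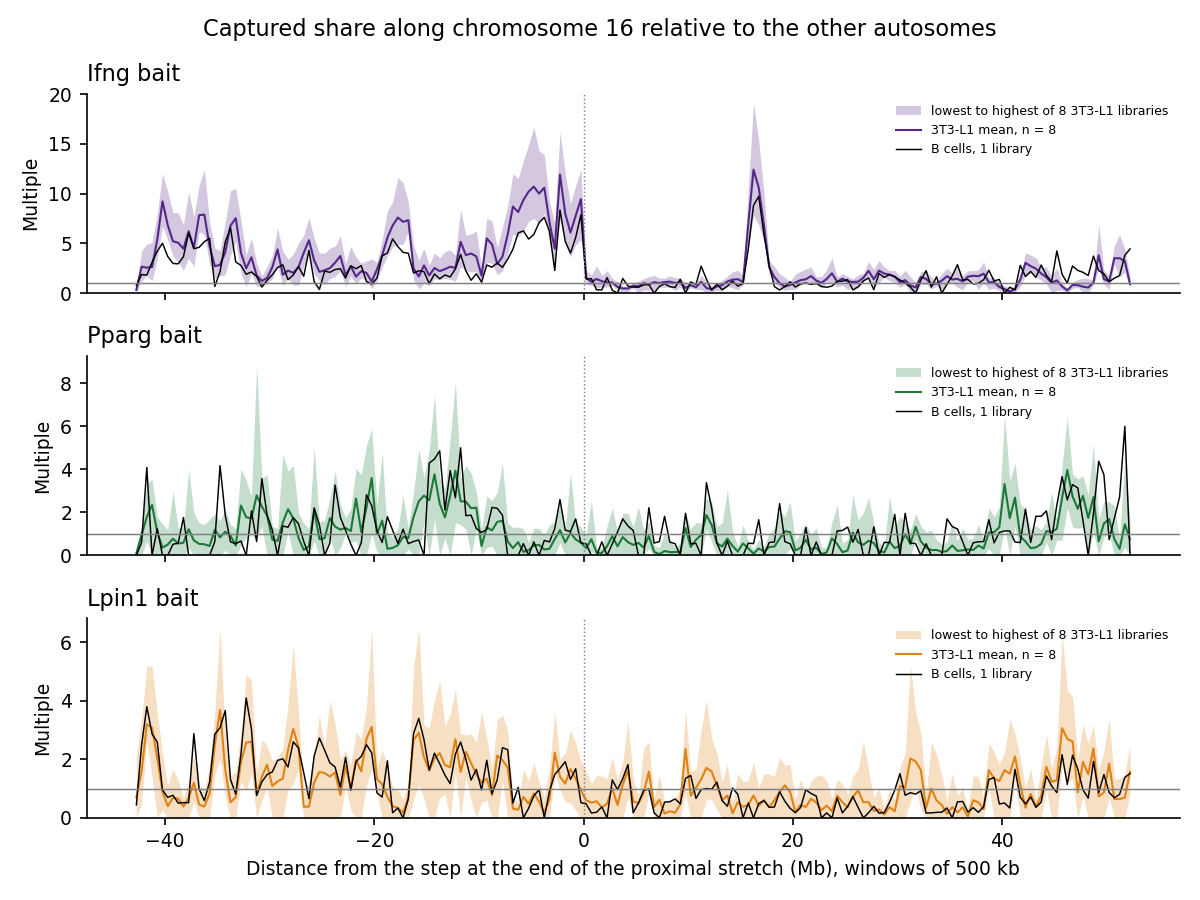
Multiple of the other autosomes in 191 windows of 500 kb along chromosome 16 (vertical axes, a separate scale for each bait) against the distance in Mb from the step that ends the proximal stretch. Coloured lines are means of 8 3T3-L1 libraries, bands run from the lowest to the highest library and black lines are the single B cell libraries; under Ifng the island reaches 12.4 with low values on both sides, and no window passes 3.97 under Pparg or 3.69 under Lpin1 in the 3T3-L1 means.

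The chromosome was divided at the 3 steps of the Ifng profile, which were read off after the values were seen. The proximal stretch, 3 to 46 Mb, holds 13906 HindIII sites. Its Ifng multiple in the libraries numbered 1 and 2 was 6.77 and 3.14 at day 0, 5.46 and 3.93 at day 1, 5.20 and 3.57 at day 2, and 5.27 and 4.20 at day 6. The mean was 4.69 ± 1.19 (SD, n = 8), and the B cell library had 3.28. Every 3T3-L1 library lay above 3 in this stretch.

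The middle stretch, 46 to 61.6 Mb, holds 5224 sites and was captured like the other autosomes. Its Ifng multiple ranged from 0.789 to 1.10 with a median of 0.931 and a mean of 0.936 ± 0.0932 (SD, n = 8), and the B cell library had 0.827. In no Ifng library did it come near the proximal stretch.

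The island, 61.6 to 63.3 Mb, holds 588 sites and was the most strongly captured stretch of chromosome 16 under Ifng. Its multiple was 12.1 and 7.04 at day 0, 15.6 and 9.14 at day 1, 9.27 and 8.36 at day 2, and 14.4 and 9.69 at day 6 in the libraries numbered 1 and 2. The mean was 10.7 ± 3.03 (SD, n = 8), and the B cell library had 8.31. In reads per site and after thinning, the B cell library lay below every 3T3-L1 library in the island (4.59 against 9.06 to 49.9, and 5.61 against 8.66 to 30) and in the proximal stretch (2.06 against 3.04 to 14.3, and 2.55 against 3.20 to 11.9). These stretches were bounded on the 3T3-L1 libraries, which favours a lower B cell value in them. Between 26.9% and 60.9% of the island's sites were captured in a single 3T3-L1 library, from 158 to 358 sites.

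The distal stretch, from 63.3 Mb to the end, holds 11244 sites. Its Ifng multiple was 1.44 ± 0.116 (SD, n = 8), from 1.28 to 1.63, and the B cell library had 1.46. It stayed above 1 in all 8 3T3-L1 libraries and held a few short windows above 2.

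The same stretches looked different from the baits of the fat genes. The proximal stretch had a multiple of 1.26 ± 0.0900 under Pparg and 1.39 ± 0.0722 under Lpin1 (SD, n = 8 each), and the middle stretch 0.557 ± 0.129 and 0.778 ± 0.109. The island was below the other autosomes for these baits, at 0.237 ± 0.186 under Pparg and 0.534 ± 0.167 under Lpin1. These island values rest on 0 to 12 captured sites per 3T3-L1 library under Pparg and 1 to 11 under Lpin1. The distal stretch had 0.881 ± 0.0914 and 0.908 ± 0.110. In the B cell libraries the island had 0.845 under Pparg, from 5 captured sites, and 0.350 under Lpin1, from 7.

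**Figure D3:**
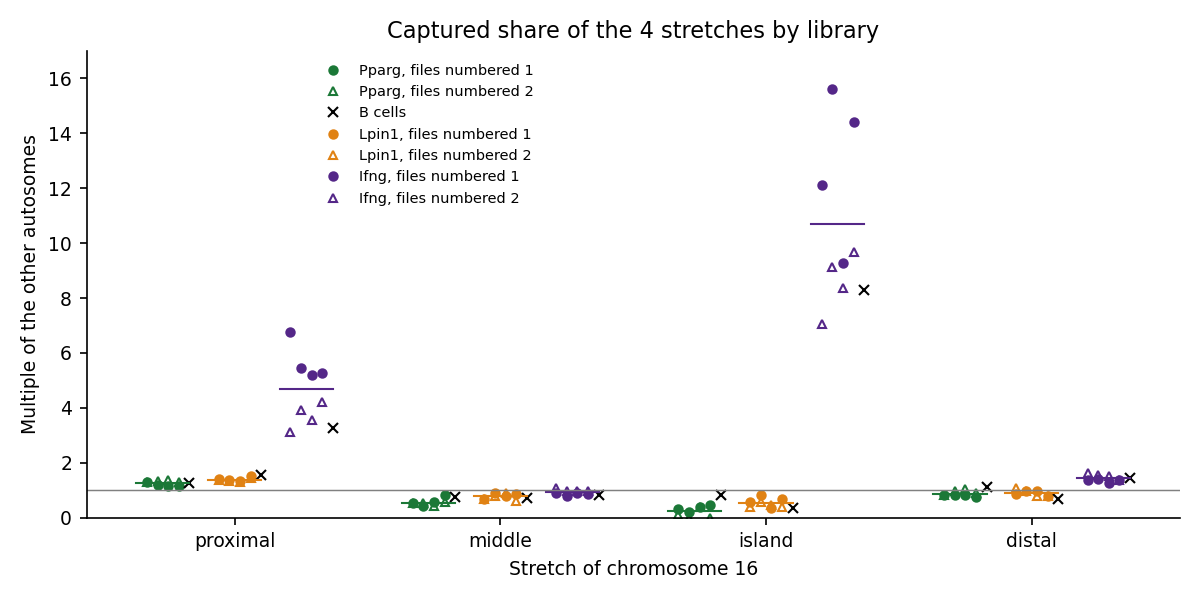
Multiple of the other autosomes (vertical axis) in the 4 stretches of chromosome 16 (horizontal axis) for each library of the 3 baits. Filled circles are 3T3-L1 files numbered 1, open triangles files numbered 2, crosses the B cell library, and bars the mean of 8; under Ifng every library exceeds 3 in the proximal stretch and 7 in the island, and lies between 0.789 and 1.63 in the other stretches of 3T3-L1.

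The excess capture under Ifng was the captured sites above those that the rate of the other autosomes would give. The proximal stretch held 82.1% of it in the mean of the 8 libraries, the island 9.27%, the distal stretch 8.98% and the middle stretch -0.400%. The 4 windows of 43 to 44 and 62 to 63 Mb had a multiple of 10.0 ± 2.89 (SD, n = 8) and held 10.4% of the excess on 2.30% of the sites. Without these 4 windows the multiple of chromosome 16 was still 2.83 ± 0.495. Without the proximal stretch and the island it was 1.28 ± 0.102, from 1.15 to 1.46.

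Runs of adjoining windows with a mean Ifng multiple of at least 2 made 10 blocks. Of these, 7 lie in the proximal stretch. The block with the highest mean there ran from 36.5 to 46 Mb over 19 windows, at 7.74 ± 1.89 (SD, n = 8), and takes in the span at 43 to 44 Mb. The others of over 5 windows ran from 3.5 to 14.5 Mb (5.07), from 17.5 to 23 Mb (3.11), from 26 to 30 Mb (5.44) and from 31.5 to 36 Mb (3.28). The short ones were at 16 to 17 Mb (3.53) and 24.5 to 25.5 Mb (2.12). The B cell library had 5.14 in the block at 36.5 to 46 Mb and 3.71 in that at 26 to 30 Mb.

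Beyond 46 Mb there were 3 blocks. The block at 61.5 to 64 Mb contains the island and had 8.0 ± 2.13 (SD, n = 8) in 3T3-L1 and 6.42 in B cells. The block at 88 to 89.5 Mb had 2.75 ± 0.476 (B cells 1.80), and the block at 96.5 to 98 Mb had 3.41 ± 0.575 (B cells 2.31). In these 3 blocks Pparg had 0.264, 0.462 and 0.838, and Lpin1 had 0.519, 0.511 and 0.660, all below the other autosomes.

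The 5 windows with the highest Ifng means were those starting at 62, 43.5, 41, 42 and 62.5 Mb. The window at 62 Mb, with 181 sites, had 13.1 and 7.85 at day 0, 19.1 and 10.3 at day 1, 10.3 and 9.85 at day 2, and 16.9 and 12.1 at day 6. Its mean was 12.4 ± 3.82 (SD, n = 8), and the B cell library had 8.81. From 57 to 122 of its sites were captured per 3T3-L1 library, whereas 0 to 2 were captured under Pparg and 0 to 4 under Lpin1.

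The window at 43.5 Mb, with 191 sites, had 15 and 7.35 at day 0, 16.2 and 9.34 at day 1, 10.8 and 8.74 at day 2, and 16 and 12 at day 6. Its mean was 11.9 ± 3.45 (SD, n = 8), with 8.35 in B cells. It differs from the island in that the fat gene baits also captured it near the common rate, at 1.18 ± 0.542 under Pparg and 1.41 ± 0.412 under Lpin1. The neighbouring window at 43 Mb was lower in each library, from 2.87 to 7.02 with a mean of 4.46 ± 1.57, so the span at 43 to 44 Mb was not itself even.

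The windows at 41 Mb (10.7 ± 3.10, B cells 5.90), 42 Mb (10.6 ± 2.11, B cells 7.61) and 62.5 Mb (10.6 ± 3.09, B cells 9.72) followed. Their ranges over the 8 libraries overlap with those of the 2 highest windows. The 5 windows share these libraries, so the ranges do not settle their order, and the order within each library was not tested. At the low end stood the windows at 86.5 Mb (0.165 ± 0.208), 92 Mb (0.276 ± 0.163) and 3 Mb (0.315 ± 0.227). The last is the first window of the chromosome with mapped sites, so the proximal stretch does not begin at full height.

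The edges were first placed in the mean profile, over 30 HindIII sites on each side. In the mean of the 8 3T3-L1 libraries, the 30 sites up to 45967227 had a multiple of 9.91 and the 30 sites from 45969358 on had 0.384. The island began between the sites at 61639067 and 61643877, with a multiple of 0.874 before and 12.8 after. It ended between 63271114 and 63272743, with 14.2 before and 0.532 after. Each boundary is the one with the largest step within 500 kb, so these values were chosen for their contrast.

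Each edge was also sought in each library on its own. The end of the island came within 50 kb of the mean's edge in 8 of 8 libraries, the start of the island in 7 of 8, and the end of the proximal stretch in 4 of 8. The libraries' own edges spread over 13.3 kb, 351.6 kb and 265.1 kb in that order. The B cell library, with fewer captured sites, placed them at 63625060, 62092729 and 45554264, each more than 50 kb from the 3T3-L1 edge.

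In windows of 100 kb, the Ifng mean was 9.45 at 45.8 Mb and 6.97 at 45.9 Mb, and 0.954 at 46 Mb. At the island it was 0.652 at 61.5 Mb, 6.94 at 61.6 Mb and 11.9 at 61.7 Mb. It was 7.90 at 63.2 Mb and 0.777 at 63.3 Mb. Beyond both ends the mean was not flat: it was 2.49 at 46.1 Mb and 2.56 at 46.2 Mb, and it rose again to 3.14 at 63.5 Mb and 4.28 at 63.6 Mb, where the B cell library had 7.57. Inside the island no window of 100 kb from 61.6 to 63.2 Mb had an Ifng mean under 6.94, and none showed a Pparg mean above 0.703. The Lpin1 mean was 1.41 at 61.8 Mb, 1.73 at 62 Mb and 1.47 at 62.4 Mb, and 0.848 or lower in the other windows of the island.

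**Figure D4:**
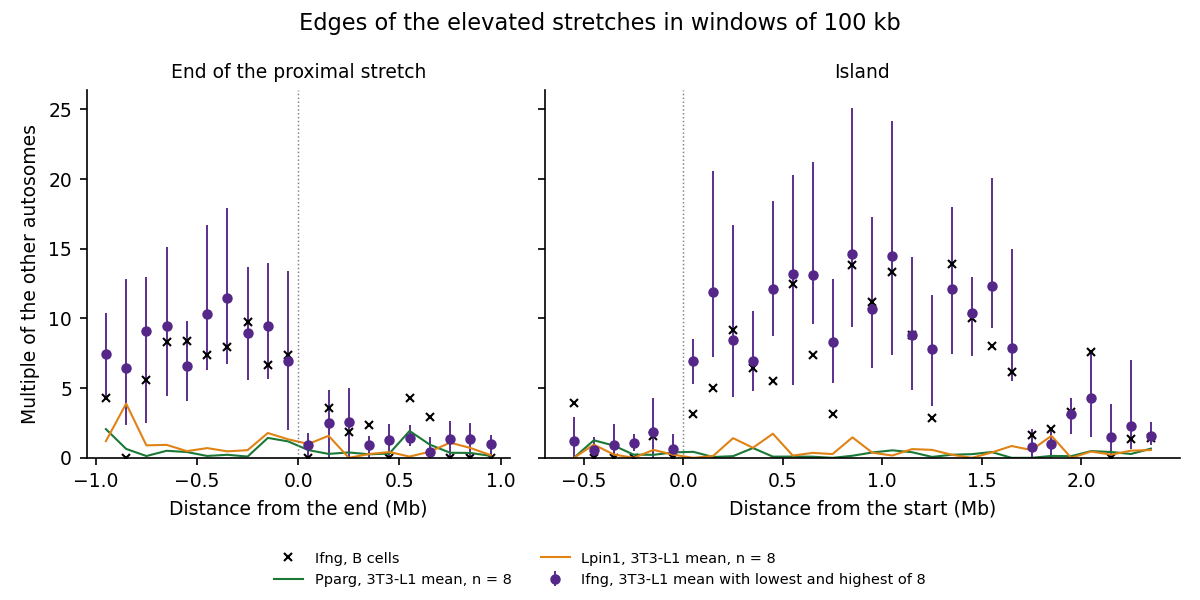
Multiple of the other autosomes in windows of 100 kb (vertical axis) against the distance in Mb from the end of the proximal stretch (left) and from the start of the island (right). Points are means of the 8 Ifng 3T3-L1 libraries with bars from the lowest to the highest, crosses the Ifng B cell library, and lines the Pparg and Lpin1 means; the Ifng mean falls from 6.97 to 0.954 across the first edge and rises from 0.652 to 6.94 across the second.

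Single sites recurred across libraries under Ifng. Of the chromosome's sites, 151 (0.488%) were captured in all 8 Ifng libraries of 3T3-L1, against 67 (0.0110%) of the 611746 sites on the other autosomes. Of these 151, 96 lay in the proximal stretch, 50 in the island, 5 in the distal stretch and 0 in the middle stretch. The island's 50 are 8.50% of its 588 sites. The B cell library captured 76 of the 151. In 6 or more of the 8 libraries, 971 sites of chromosome 16 (3.14%) were captured under Ifng, against 0.170% on the other autosomes. Under Pparg and under Lpin1 0 were, where the other autosomes had 14 sites (0.00229%) and 56 sites (0.00915%), so a count of 0 is near the background.

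Of those 151 sites, the 5 with the most reads relative to the other autosomes all lay in the island. At chr16:62574126-62574131, the libraries numbered 1 had 91, 16, 32 and 25 reads at days 0, 1, 2 and 6, and those numbered 2 had 8, 8, 5 and 2. At chr16:62430718-62430723 they had 56, 5, 93 and 17 reads, and 4, 17, 3 and 3. The other leading sites were at 62435284, 63030764 and 62697990, with medians of 7.5, 6.5 and 8.0 reads. These 5 sites had 0 reads in the 3T3-L1 libraries of Pparg and Lpin1, as did 86.5% and 87.6% of all sites of chromosome 16 for those baits. No single site held more than 0.579% of the chromosome's reads in an Ifng library.

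In reads rather than captured sites the same regions stood out. Reads per HindIII site on chromosome 16, relative to the other autosomes, were 8.03 and 2.58 at day 0, 4.24 and 2.58 at day 1, 5.59 and 2.27 at day 2, and 3.54 and 2.50 at day 6 under Ifng. The B cell library had 1.67. The read multiple was 6.24 ± 3.94 in the proximal stretch, 0.892 ± 0.130 in the middle, 22.3 ± 15 in the island and 1.49 ± 0.128 in the distal stretch (SD, n = 8). The wider spread came with the libraries numbered 1, whose proximal read multiples averaged 9.06 ± 3.88 against 3.42 ± 0.264 in those numbered 2 (SD, n = 4 each).

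Under the baits of the fat genes, chromosome 16 had its own pattern. Pparg was highest in the windows at 92 Mb (3.97 ± 1.39), 33.5 Mb (3.94 ± 2.36), 31.5 Mb (3.77 ± 1.76), 25.5 Mb (3.60 ± 1.76) and 86 Mb (3.32 ± 1.5). At 92 Mb its libraries numbered 1 and 2 had 3.00 and 4.82 at day 0, 6.42 and 3.87 at day 1, 3.36 and 5.11 at day 2, and 2.22 and 2.94 at day 6. These came from 2 to 33 captured sites among 154. All 8 libraries lay above 2 in that window, which was also among the 3 lowest of chromosome 16 under Ifng.

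Lpin1 was highest at 11 Mb (3.69 ± 1.76), 4 Mb (3.20 ± 0.862), 25.5 Mb (3.11 ± 1.45), 4.5 Mb (3.08 ± 1.39) and 91.5 Mb (3.07 ± 1.44). The window at 4 Mb was the steadiest of these, from 2.62 to 5.20, with 3.80 in B cells. At 25.5 Mb, a window that both fat gene baits share in their highest 5, Ifng had 1.17 ± 0.961. Of these 9 windows, Ifng exceeded 2 in 5, at 4, 4.5, 11, 31.5 and 33.5 Mb, all in the proximal stretch. Over all windows of chromosome 16 the share above 2 under Ifng was 46.6%, so this count is near it.

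Across the 191 windows, the profiles of Pparg and Lpin1 had a Spearman correlation of 0.787, and that of Ifng correlated with neither, at -0.0443 with Pparg and -0.0715 with Lpin1. Within the proximal stretch (86 windows) Ifng ran against both, at -0.624 with Pparg and -0.629 with Lpin1. Beyond 46 Mb (105 windows) the values were -0.451 and -0.533. The windows of a profile share their libraries and their HindIII sites, and neighbouring windows resemble each other, so these are descriptions. The number of HindIII sites per window moved with the profiles inside the proximal stretch, at 0.420 with Ifng, -0.375 with Pparg and -0.502 with Lpin1, and its part in the opposition was not tested.

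The 24 proximal windows with an Ifng multiple of at least 6 had medians of 0.514 under Pparg and 0.590 under Lpin1. The 36 proximal windows under 3 had 1.77 and 1.90, and the 26 between had 1.13 and 1.30. The medians of the fat gene baits were thus lowest in the class highest for Ifng, but the classes overlapped: under Pparg they ran from 0.168 to 1.22 in the class of at least 6 and from 0.0996 to 3.94 in the class under 3. Under Lpin1 they ran from 0.170 to 1.67 and from 0.690 to 3.69. The Ifng medians of the 3 classes were 7.86, 2.33 and 4.42 in the order given.

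**Figure D5:**
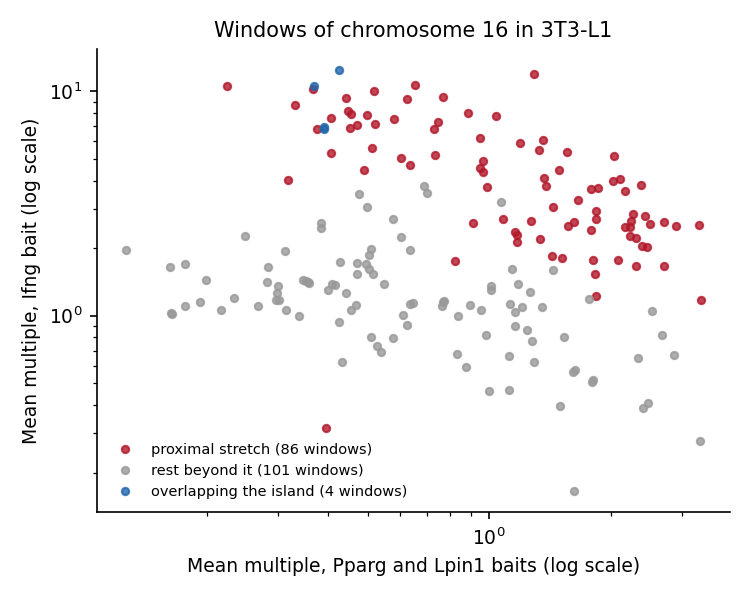
Mean Ifng multiple (vertical axis, log scale) against the mean of the Pparg and Lpin1 multiples (horizontal axis, log scale) for the 191 windows of 500 kb in 3T3-L1, 1 point a window. Red points are the 86 proximal windows, blue the 4 windows that overlap the island and grey the rest; red points run from high Ifng and low fat gene values towards lower Ifng and higher fat gene values, with a Spearman correlation of -0.624 with Pparg alone and -0.629 with Lpin1 alone.

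The Ifng profile recurred from library to library. Pairs of its 8 3T3-L1 libraries correlated at 0.767 to 0.934 over the 191 windows, against 0.289 to 0.750 for Pparg and 0.337 to 0.678 for Lpin1, whose libraries had fewer captured sites on the chromosome. The mean 3T3-L1 profile and the B cell library correlated at 0.770 under Ifng, 0.769 under Lpin1 and 0.485 under Pparg. Beyond 46 Mb (105 windows) the library pairs correlated at 0.507 to 0.741 under Ifng, 0.296 to 0.628 under Pparg and 0.162 to 0.646 under Lpin1. The 3T3-L1 mean and the B cell library correlated there at 0.453 under Ifng, 0.620 under Lpin1 and 0.431 under Pparg.

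No change with differentiation was detectable in the level of chromosome 16. Under Ifng the mean multiple was 3.12 ± 1.13 at day 0 and 3.01 ± 0.399 at day 6 (SD, n = 2 each), a difference of -0.108 with p = 1.00 in a two-sided exact permutation test. Under Lpin1 the difference was -0.0246 (exact permutation p = 0.667), and under Pparg it was -0.00210 (exact permutation p = 1.00). The groups overlapped for each bait, and with 2 libraries against 2 the smallest p possible is 0.333. Leaving out the Ifng day 0 library numbered 1 turned the Ifng difference to 0.693, and it was -1.52 after thinning and -2.29 in reads.

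Single windows were tested with edgeR's quasi-likelihood fit over all windows of autosomes without a bait whose captured sites averaged 3 or more. Of chromosome 16, 76 windows entered under Pparg, 99 under Lpin1 and 182 under Ifng. In the 9 contrasts of days 1, 2 and 6 against day 0, 0 windows of chromosome 16 passed an adjusted p of 0.05 in edgeR, and 0 in DESeq2. In edgeR the share called among all windows tested was 0% in each of these contrasts, and that of DESeq2 is not given here. At an unadjusted p under 0.05, the 3 contrasts had 2, 1 and 5 windows of chromosome 16 under Pparg, 7, 1 and 10 under Lpin1, and 1, 5 and 4 under Ifng.

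At that unadjusted threshold the background over all windows was 3.85%, 5.18% and 6.73% under Pparg, 5.19%, 4.67% and 7.11% under Lpin1, and 3.11%, 3.11% and 4.06% under Ifng. The median log2 change from day 0 to day 6 over the windows of chromosome 16 was -0.15 under Pparg, -0.51 under Lpin1 and -0.16 under Ifng, and over all windows tested -0.18, -0.30 and -0.07. The chromosome 16 windows with the smallest p at day 6 under Ifng were 47 Mb (log2 0.95 ± 0.52 SE, adjusted p = 0.979) and 77 Mb (-2.18 ± 0.81, adjusted p = 0.979). Under Pparg they were 44.5 Mb (1.79 ± 0.73) and 33 Mb (-1.96 ± 0.76), each at an adjusted p of 0.717. Under Lpin1 they were 29.5 Mb (1.39 ± 0.64, adjusted p = 0.615) and 56 Mb (-5.31 ± 2.06, adjusted p = 0.533). In simulated data the day 6 contrast recovered 58.0% of windows changed 4-fold under Ifng, 39.0% under Pparg and 19% under Lpin1, and 10.0%, 1.00% and 0% of those changed 2-fold. The changes were placed over all autosomes tested, only in windows with more captured sites than the entry threshold asks. All windows were drawn with a single median spread. Recovery in the sparser windows, or on chromosome 16 alone, was not simulated.

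For days 1 and 2 the windows nearest to a call were also far from the threshold. Under Ifng they were 21 Mb (0.82 ± 0.42) and 25.5 Mb (-1.26 ± 0.62) at day 1, each with an adjusted p of 0.995. At day 2 they were 57 Mb (1.09 ± 0.50) and 51 Mb (-1.62 ± 0.55), each with 0.984. Under Pparg the smallest adjusted p was 0.485, at 25.5 Mb on day 1 (1.26 ± 0.42). Under Lpin1 it was 0.876, at 55.5 Mb on day 1 (1.66 ± 0.66). A test of whether the day 6 change of Ifng differed from that of the other baits called 0 of 178 windows of chromosome 16 in edgeR (background 0%). DESeq2, a fit added after the data were seen, called 0 (share over all windows not given here). In edgeR 11 had an unadjusted p under 0.05 (background 5.81%).

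Between the cell lines, 1 window of chromosome 16 passed under Ifng and 0 under the other baits. The background was 0.490% of all windows under Ifng (17 of 3469, all higher in B cells), 0.259% under Lpin1 and 0% under Pparg. The window was the last one of the chromosome, from 98 Mb to its last site at 98314740, with 116 sites. Its Ifng multiple ran from 0.462 to 1.63 over the 8 3T3-L1 libraries, with a median of 0.843, and was 4.44 in the B cell library. The B cell value rests on 10 captured sites and lies above every 3T3-L1 library. The log2 difference was 2.33 ± 0.56 (SE) with an adjusted p of 0.0411 in edgeR's quasi-likelihood test.

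That call was lost in DESeq2 (0 windows), without the filter, with the replicate number as a block, in windows of 200 kb, and when either day 1 or either day 6 library of Ifng was left out. The share called among all windows is not set beside these losses, so they may not be particular to chromosome 16. Without either day 0 library 2 windows passed (background 0.881% and 0.738%). The B cell group is a single library, assumed to vary like the 3T3-L1 libraries. At an unadjusted p under 0.05, edgeR had 14 of the 182 windows under Ifng (background 13.2%), 8 under Pparg (6.50%) and 7 under Lpin1 (10.5%).

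In windows of 1 Mb, 5 of 96 windows of chromosome 16 passed under Ifng (5.21%, background 3.79%), a share near that of all windows. They were higher in B cells, at 91, 92, 93, 94 and 98 Mb, with log2 differences of 1.72 ± 0.40, 1.83 ± 0.50, 1.69 ± 0.49, 1.83 ± 0.46 and 2.36 ± 0.59 (SE) and adjusted p-values from 0.00532 to 0.0338 in edgeR. Over the span from 91 to 95 Mb, set after these calls were seen, the Ifng multiple ran from 0.647 to 1.06 in the 8 3T3-L1 libraries, with a median of 0.762. It was 2.53 in the B cell library, from 57 captured sites among 1158. In this span Pparg had 2.52 ± 0.527 in 3T3-L1 and 2.49 in B cells, and Lpin1 had 2.06 ± 0.256 and 1.5.

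No window of chromosome 16 passed as lower in B cells. The chromosome 16 window nearest to a lower call in B cells under Ifng was at 80 Mb (log2 -5.92 ± 2.12, adjusted p = 0.201), where the B cell library had 0 captured sites and the 3T3-L1 libraries 1 to 13. A count of 0 allows up to 3 captured sites, so this fitted value is not a bound. Under Pparg the nearest were 97.5 Mb (2.91 ± 0.74, adjusted p = 0.132) and 30.5 Mb (-6.07 ± 2.40, adjusted p = 0.635). Under Lpin1 they were 11.5 Mb (1.23 ± 0.43, adjusted p = 0.186) and 86.5 Mb (-2.10 ± 0.86, adjusted p = 0.324).

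Whether the B cell difference of Ifng differed from that of the other baits was tested in 178 windows of chromosome 16. Of these 0 passed in edgeR (background 0%) and 0 in DESeq2 (share over all windows not given here). In edgeR 25 had an unadjusted p under 0.05 (background 12.1%). The smallest p-values were at 98 Mb (log2 4.45 ± 1.44, adjusted p = 0.215) and 95 Mb (-3.22 ± 0.97, adjusted p = 0.161). The median log2 difference between B cells and 3T3-L1 under Ifng was -0.32 over the windows of chromosome 16 and -0.15 over all windows. For Ifng against the other baits it was -0.55 and -0.00. The window calls in 500 kb did not include the island or the proximal blocks, whose levels were lower in the B cell library than the 3T3-L1 mean. These regions were chosen for high values in the 3T3-L1 libraries, which favours such a difference.

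The replicate number moved with the Ifng level of chromosome 16. The files numbered 1 had 3.92, 3.40, 3.12 and 3.29 at days 0, 1, 2 and 6, a mean of 3.43 ± 0.344, and those numbered 2 had 2.32, 2.67, 2.48 and 2.73, a mean of 2.55 ± 0.186 (SD, n = 4 each). The groups did not overlap, and the files numbered 1 were higher on 4 of 4 days. The difference of -0.885 had p = 0.0286 in a two-sided exact permutation test, the smallest that 4 against 4 can give, and 0.171 after Benjamini-Hochberg adjustment over the 6 such tests. Thinning each library to 42094 reads left the groups apart, at 3.35 to 6.60 in files numbered 1 and 2.32 to 2.68 in those numbered 2.

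The same files differed by stretch. The proximal multiple was 5.67 ± 0.739 in files numbered 1 and 3.71 ± 0.461 in those numbered 2, while the middle and distal stretches ran the other way, at 0.864 against 1.01 and 1.37 against 1.52. The island had 12.8 against 8.56. For the other baits the files numbered 2 minus those numbered 1 gave 0.0923 under Pparg (exact permutation p = 0.0571, adjusted 0.171) and -0.0349 under Lpin1 (exact permutation p = 0.257, adjusted 0.514), with overlap in both.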

How the data were processed

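The authors deposited 27 tables of read counts, whole numbers of reads at each HindIII site, with no normalisation. Bowtie and mm9 are named in the submitters' processing notes; read filters and removal of PCR duplicates are not given in the sources used here. Sites within 10 kb of the bait were left out. Captured sites (at least 1 read) were summed over windows of 500 kb and fitted by quasi-likelihood in edgeR 4.0.16, under R 4.3.3 (TMM, 5 groups per bait, Benjamini-Hochberg over all windows of a contrast), with DESeq2 1.42.0 as an alternative. The fit was tested on simulated data. Per-library multiples were compared with exact permutation tests in Python 3.11.15.

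The members and lists were chosen with earlier results of these data known. Windows named are the 4 of 43 to 44 and 62 to 63 Mb, the 5 highest of each bait, the 3 lowest of Ifng, the blocks, and for each contrast the passing windows or the smallest p in each direction. Separate cultures are not recorded for the 2 files of a group, and p-values cover the spread of these libraries alone, which may be technical. Over the windows of all autosomes without a bait, same-numbered libraries of different days deviated together weakly or not at all. Under Pparg each pair of days did so weakly. The lowest and highest correlations were 0.08 and 0.15 in Pparg, -0.00 and 0.33 in Lpin1, and 0.00 and 0.13 in Ifng. The number was therefore not taken as a pairing in the main fit. On chromosome 16 itself the Ifng level did move with the number, and an alternative fit took the number as a block. Alternatives were reads, a minimum of 2 reads, thinning, other windows, another denominator and leaving out each library. Sequences were not used here, as no mm9 genome was at hand.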

Additional observations from a re-analysis of the deposited data

Results flagged for a closer look

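Among 37 sets of 8 3T3-L1 libraries examined, 5 had 1 library far from the other 7. Chance flags about 1 in 20 sets that were not picked by their values. Most of the single windows were picked for a high mean over these same libraries, which 1 high library raises. That rate therefore does not apply to them. Under Pparg, the day 6 library numbered 1 had a multiple of 0.838 in the middle stretch of chromosome 16, where the others had 0.419 to 0.579. Under Lpin1, the day 6 library numbered 2 had a read multiple of 0.687 for the whole chromosome, against 0.992 to 1.22.

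The remaining 3 are single windows under Lpin1, and each rests on few captured sites. The window at 25.5 Mb had 6.49 in the day 6 library numbered 2 (5 captured sites), against 1.68 to 3.18. The window at 4 Mb had 5.20 in the day 6 library numbered 1 (9 captured sites), against 2.62 to 3.37. The window at 91.5 Mb had 6.29 in the day 1 library numbered 2 (9 captured sites), against 1.77 to 3.83. No set of the Ifng libraries was among the 5.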

How the results depend on the processing

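The Ifng level of chromosome 16 stayed far above 1 under each alternative run. It was 3.92 in reads per site, 3.64 with 2 or more reads, 3.56 after thinning, and 2.86 to 3.09 with 1 library left out. With only the bait's own chromosome left out of the denominator, the Ifng level was lower. It ran from 2.21 to 3.49 over the 8 3T3-L1 libraries, against 2.32 to 3.92 with every bait chromosome left out. Without 43 to 44 and 62 to 63 Mb it was 3.54 in reads and 3.34 with 2 or more reads, and the Lpin1 level was 1.04 in reads. Windows above 1 under Ifng made up 76.7% of those of 200 kb and 79.2% of those of 1 Mb. The 4 stretches, recomputed after the data were seen, kept their order under Ifng in each of 4 alternatives, with the island at 9.85 to 22.3 and the proximal stretch at 4.31 to 6.24.

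The day 6 minus day 0 differences had no settled sign. Pparg gave 0.0492 with 2 or more reads and -0.0378 to 0.0336 with 1 library left out (0.0336 without day 6 number 1). Lpin1 gave 0.0594 after thinning, and -0.0596 to 0.0105 with 1 left out (0.000272 and 0.0105 without number 2 of day 0 or of day 6). Ifng gave -2.29 in reads, -1.52 after thinning and -0.661 with 2 or more reads, and -0.910 to 0.693 with 1 left out, with 0.693 without day 0 number 1 and 0.174 without day 6 number 2. For files numbered 2 minus 1, Lpin1 gave 0.0188 after thinning, and Pparg gave 0.166 after thinning and 0.0773 to 0.109 with 1 left out (exact permutation p = 0.0286 after thinning and at 0.109, without day 0 number 2); Ifng kept its direction and p.

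B cell calls changed most. Where a count of 0 stands without a background, the share over all windows is not given here. Under Ifng, 0 windows passed with DESeq2, without the filter, with the replicate block and in windows of 200 kb, 5 in windows of 1 Mb (5.21%, background 3.79% of all windows), 6 by reads (3.16%, background 4.87%), and 0 to 2 with 1 library left out (background 0.198% to 0.881% without each 3T3-L1 library of Ifng). Under Pparg, 1 passed with the replicate block (97.5 Mb, log2 3.28 ± 0.75, adjusted p = 0.0197, background 0.0575%) and 1 in windows of 1 Mb (background 0.205%). For the B cell difference between baits, 2 passed in windows of 200 kb (0.990%, background 0.703%), 4 in windows of 1 Mb (4.17%, background 3.30%) and 8 with 2 or more reads (6.67%, background 2.49%). Without the Ifng day 0 library numbered 2, 1 window passed at day 2 (background 0.0295%). The replicate block changed no other call. The cause of these shifts was not tested. Few captured sites limit Pparg and Lpin1 most: 76 and 99 windows of chromosome 16 had enough to be tested, against 182, although the Lpin1 libraries held 717737 or more reads outside the bait zone.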

Other observations

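With a minimum of 2 reads, the window at 91 Mb was the 1 of 149 on chromosome 16 that passed for B cells under Ifng (0.671%, background 0.772% of all windows), at a log2 difference of 3.43 ± 0.70 (SE) and an adjusted p of 0.000587 in edgeR. By reads per window, the windows at 57, 57.5, 91, 92.5, 93.5 and 98 Mb passed, with log2 differences of 2.31 to 3.75. That is 6 of 190 (3.16%), and the background was 4.87%. These calls and those in windows of 1 Mb share the same single B cell library.

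With a minimum of 2 reads, the B cell difference of Ifng against the other baits passed in 8 of 120 windows of chromosome 16 (6.67%, background 2.49%), 7 of them lower in B cells. They included windows of the elevated regions, at 43.5 Mb (log2 -2.95 ± 0.78, adjusted p = 0.0233) and 62.5 Mb (-3.96 ± 1.08, adjusted p = 0.0254). Both windows are among the 5 highest for Ifng in 3T3-L1, and the stretches were bounded on those libraries. That choice favours a lower B cell value in them. With that minimum the island had an Ifng multiple of 17.9 ± 9.94 (SD, n = 8) in 3T3-L1 and 5.46 in the B cell library, and the proximal stretch 5.77 ± 2.58 and 1.89. With a minimum of 1 read the same windows did not pass, and the B cell island value of 8.31 lay within the 3T3-L1 range of 7.04 to 15.6; in reads and after thinning it lay below every 3T3-L1 library, at 4.59 and 5.61.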
